A study of Mus musculus with 4 samples.

Results

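The collagen chains of the mouse are described here across the stromal and other cells of 2 dystrophic muscles. The set holds every gene of the count matrices whose symbol is Col, a number, the letter a and a number with nothing after it, which gave 44 genes of 32285. No measured value entered that choice. Of these, 29 reached a mean of 20 CPM (UMIs of a gene scaled to a common library total) and 50 UMIs (counted molecules) in at least 1 of 8 cell classes, and 15 reached it in none.

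Mononuclear cells of the quadriceps and of the diaphragm were captured from mdx5cv mice and from mdx5cv/Ccr2-/- mice, all 14 weeks old, giving 4 droplet libraries with 1 library per genotype and muscle. All 4 groups carry the mdx5cv mutation, which removes dystrophin from muscle fibres, and the mdx5cv/Ccr2-/- groups also lack Ccr2, a chemokine receptor through which blood monocytes reach injured tissue. No muscle without dystrophin loss was compared. The number of animals behind each library, their background strain and the part of Ccr2 that is deleted are not stated in the sources at hand.

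Collagens are trimers of chains that share a repeating glycine-rich helix, and each chain is the product of its own gene. Fibrillar chains form the tensile fibres of the muscle's connective tissue and of scar, type VI chains form beaded filaments beside the muscle fibre, type IV chains form the sheet of the basement membrane, and fibril-associated chains coat the fibres. In muscle the fibroblasts make most of the interstitial matrix, tenocytes make tendon, and endothelial cells, pericytes, glia and muscle fibres each contribute to their own basement membranes. Loss of chains of type VI or type IV causes muscle disease in patients, and collagen accumulation is the main feature of fibrosis in dystrophic muscle.

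Stretches upstream of 4 chains on which the results below turn are printed first: Col3a1, the most abundant chain of fibroblasts; Col6a5, whose level differed most between the muscles; Col11a1, whose level differed most between the genotypes; and Col8a1, which was high in fibroblasts with Cthrc1 and Tnc and in arterial cells. Each is the 250 bases before the RefSeq start of the gene on GRCm38.p6, on the strand of the gene, at chr1:45311288-45311537 (plus strand), chr9:105960644-105960893 (minus strand), chr3:114030290-114030539 (plus strand) and chr16:57754738-57754987 (minus strand). Capitals mark exact matches, on either strand, to the TATA box (searched as TATAAA), the CCAAT box (searched as CCAAT) or the GC box (searched as GGGCGG); in these 4 stretches no match overlapped another. None of the 4 stretches overlaps an annotated exon.
Col3a1: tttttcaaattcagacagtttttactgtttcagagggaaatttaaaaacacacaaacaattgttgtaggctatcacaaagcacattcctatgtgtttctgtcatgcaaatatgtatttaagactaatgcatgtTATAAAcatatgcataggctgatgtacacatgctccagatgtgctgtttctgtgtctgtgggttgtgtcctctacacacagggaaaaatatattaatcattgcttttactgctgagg
Col6a5: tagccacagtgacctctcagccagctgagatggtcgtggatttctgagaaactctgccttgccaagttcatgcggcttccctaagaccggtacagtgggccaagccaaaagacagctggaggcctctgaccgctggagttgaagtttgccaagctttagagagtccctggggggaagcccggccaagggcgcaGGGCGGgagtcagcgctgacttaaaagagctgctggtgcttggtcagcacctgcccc
Col11a1: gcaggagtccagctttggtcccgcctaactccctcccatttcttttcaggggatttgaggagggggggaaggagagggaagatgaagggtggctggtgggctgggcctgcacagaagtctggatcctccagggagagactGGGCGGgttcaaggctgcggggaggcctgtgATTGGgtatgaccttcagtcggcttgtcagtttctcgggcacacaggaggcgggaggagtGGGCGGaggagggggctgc
Col8a1: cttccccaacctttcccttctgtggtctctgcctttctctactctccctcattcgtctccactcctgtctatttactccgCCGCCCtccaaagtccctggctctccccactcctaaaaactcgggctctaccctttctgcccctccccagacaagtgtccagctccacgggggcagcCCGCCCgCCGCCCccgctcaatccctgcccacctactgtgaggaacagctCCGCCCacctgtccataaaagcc

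The 4 genes are annotated (GENCODE M21, GRCm38) at chr1:45311538-45349706 for Col3a1 (ENSMUSG00000026043), chr9:105856078-105960643 for Col6a5 (ENSMUSG00000091345), chr3:114030540-114220718 for Col11a1 (ENSMUSG00000027966) and chr16:57624258-57754737 for Col8a1 (ENSMUSG00000068196). Among the 4, TATAAA occurred only upstream of Col3a1, beginning 117 bases before the start, in a stretch of 35.2% G and C. Col11a1 held GGGCGG at 110 and 19 bases before its start and CCAAT, as ATTGG, at 79. Col6a5 held 1 GGGCGG at 57 bases and Col8a1 held 4 matches, as CCGCCC, at 170, 73, 66 and 23. A RefSeq window was found for 35 of the 44 members, 38 windows in all. Of these, 20 overlapped no annotated exon, and some RefSeq starts lay far from the GENCODE start, by 52843 bases for 1 start of Col18a1. TATAAA was in 5 of the 38 windows against 12.37% of 32851 windows of all genes, CCAAT in 13 against 33.85%, and GGGCGG in 22 against 32.74%. These matches describe letters in a window and say nothing of binding.

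Values are given in 1 order of libraries throughout: first the quadriceps of mdx5cv and then that of mdx5cv/Ccr2-/- mice, then the diaphragm of each genotype likewise. The libraries held 5839, 7492, 13175 and 7048 barcodes, with 56399477 to 92189580 UMIs each, and 28569 cells were kept. Between 7 and 21 barcodes were shared by any pair of libraries. Ccr2 stood at 252.6, 15.5, 136.6 and 8.55 CPM over all kept cells, low but not at 0 in both libraries labelled Ccr2-/-. Mesothelial-like cells were gated in the mdx5cv diaphragm library alone, with 63 cells, while the mdx5cv/Ccr2-/- diaphragm had 0. Each group is 1 library, so the comparisons of 1 library with another have no replicates and no test was run: intervals are 95% counting intervals, they cover counting error only, and a chain is called higher or lower when it is past 1.5-fold, a fold on the log2(CPM + 5) scale.

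Collagen was concentrated in fibroblast-like cells and tenocyte-like cells. The 44 chains together made up 3.82%, 5.50%, 3.65% and 3.95% of the UMIs of fibroblast-like cells, and 2.65%, 3.36%, 2.53% and 2.95% of those of tenocyte-like cells. Both classes were above every other class in every library. Glial-like cells followed with 0.651%, 0.638%, 0.723% and 0.556%, then endothelial-like cells with 0.389%, 0.479%, 0.311% and 0.347% and mural-like cells with 0.430%, 0.482%, 0.2003% and 0.238%. Myogenic-like cells stood at 0.219%, 0.242%, 0.142% and 0.188%. Myeloid-like cells, used here as a level that free RNA can give, held 0.0147%, 0.0215%, 0.0307% and 0.0271%. The median share per cell was 0.01249%, 0.01764%, 0.01535% and 0.02357% in myeloid-like cells. In lymphoid-like cells that median was higher in every library, at 0.02458%, 0.03873%, 0.0248% and 0.02886%. All 23 chains measured in fibroblast-like cells and all 22 measured in tenocyte-like cells were over 3 times the higher of the myeloid-like and lymphoid-like levels in every library. In mural-like cells 12 of 15 were (not Col1a1, Col3a1 and Col5a1), in glial-like cells 13 of 16 (not Col3a1, Col11a1 and Col12a1), and in myogenic-like cells 9 of 15 (not Col1a1, Col3a1, Col4a2, Col6a1, Col6a2 and Col6a3). The levels of these exceptions are given below as values and are not read as expression in every library. In endothelial-like cells 6 of 9 were; Col1a1, Col1a2 and Col3a1 were not, and their endothelial levels, such as 48.7, 57.9, 60.2 and 57.0 CPM for Col1a2, are not read as expression.

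**Figure D1:**
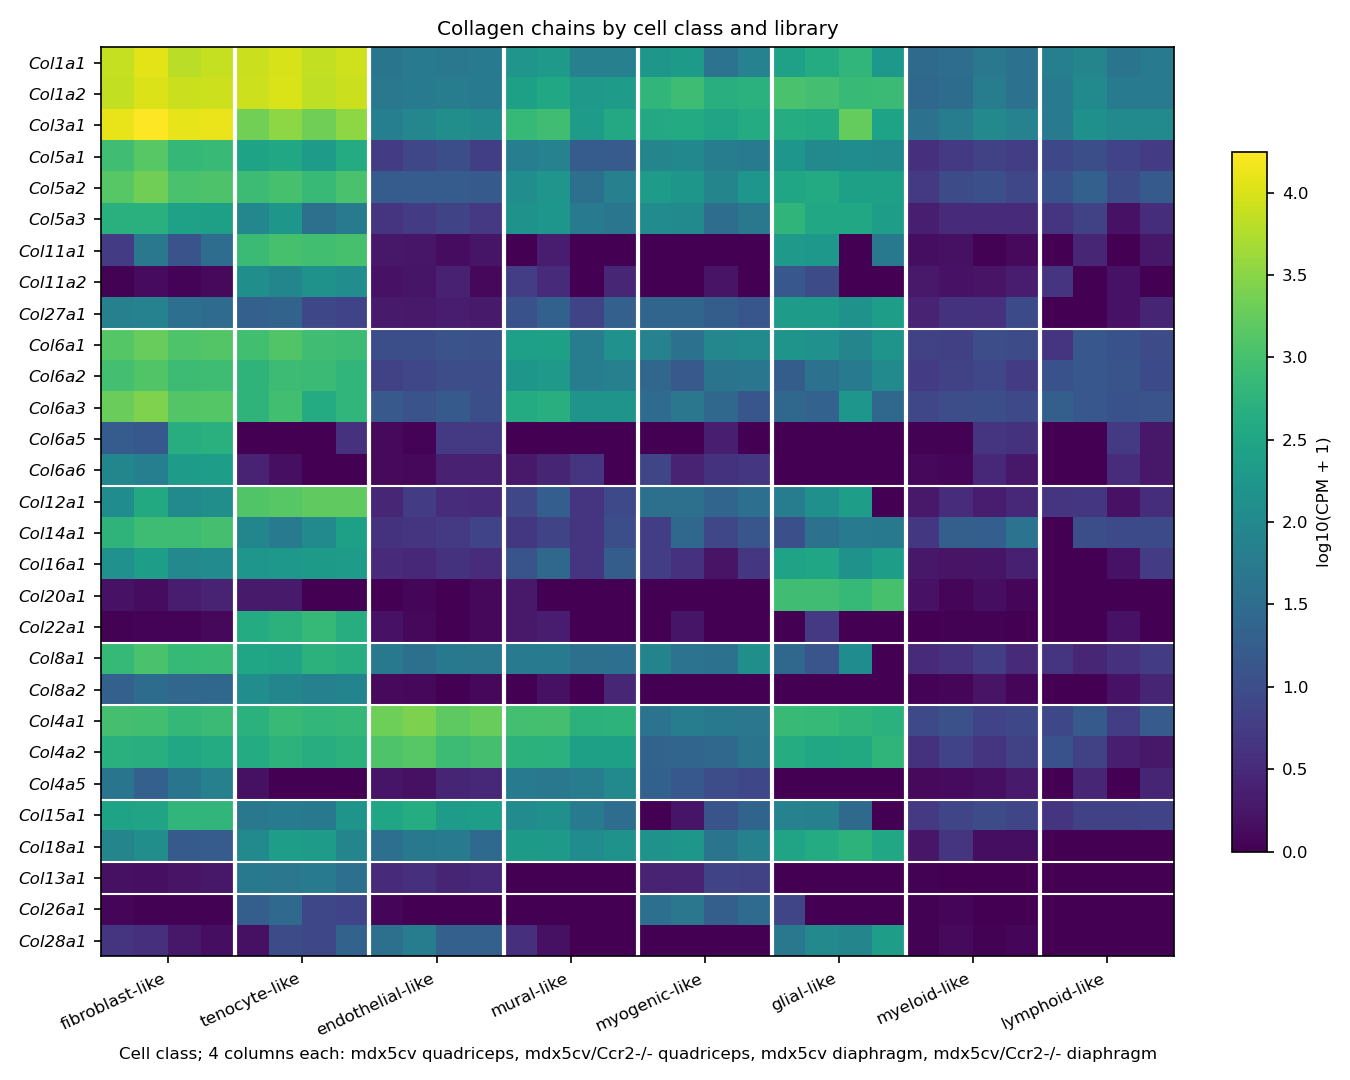
Level of the 29 chains measured in at least 1 of 8 cell classes (rows, grouped by family) as log10(CPM + 1) (colour), with 4 columns per class in the order of libraries given in the text. The fibrillar chains are brightest in fibroblast-like and tenocyte-like cells, Col4a1 and Col4a2 in endothelial-like cells, and Col20a1 is seen in glial-like cells, at 690.9 to 1043 CPM.

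Ranked by mean level over libraries, 13 of the 29 measured chains were highest in fibroblast-like cells, 7 in tenocyte-like cells (Col11a1, Col8a2, Col12a1, Col13a1, Col1a1, Col22a1 and Col11a2), 5 in glial-like cells (Col20a1, Col27a1, Col16a1, Col28a1 and Col18a1), 2 in endothelial-like cells (Col4a1 and Col4a2), 1 in mesothelial-like cells (Col4a5) and 1 in myogenic-like cells (Col26a1). The order of the first classes was close for Col5a3, at a mean of 380.3 CPM in fibroblast-like and 379.6 CPM in glial-like cells, for Col1a2, at 8563 CPM in fibroblast-like and 8460 CPM in tenocyte-like cells, and for Col1a1, at 8507 CPM in tenocyte-like and 8360 CPM in fibroblast-like cells. For Col4a5 the mesothelial-like level is not a mean over libraries. It is 94.5 CPM in 63 cells of 1 library, beside a mean of 66.4 CPM in mural-like cells. Because 1 tag is counted per captured 3′ end, the levels were not divided by gene length.

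Fibroblast-like cells, 18.7%, 18.3%, 54.3% and 58.7% of the kept cells, held 81.1%, 68.4%, 90.8% and 89.9% of each library's collagen UMIs. Cells that fell in no class held 6.75%, 21.9%, 7.98% and 8.53%. Most of that lay in cells with both fibroblast and tenocyte markers, at 5.40%, 19.3%, 6.42% and 7.39% of the library's collagen UMIs. The fibroblast-like share therefore also depends on the gate. For type IV the sources were divided differently: endothelial-like cells held 41.8% and 55.0% of its UMIs in the quadriceps libraries but 10.6% and 16.2% in the diaphragm libraries, where fibroblast-like cells held 80.1% and 75.1%. These shares move with the cells recovered: endothelial-like cells were 26.4% and 35.9% of the quadriceps cells and 7.78% and 13.9% of the diaphragm cells. Within fibroblast-like cells the main families took close shares in all libraries, with 79.4%, 81.3%, 79.5% and 79.5% of collagen UMIs from fibrillar chains and 11.4%, 10.6%, 10.9% and 10.6% from type VI. Type IV varied more, at 4.08%, 2.58%, 2.97% and 3.24%, as did the multiplexins, at 0.989%, 0.773%, 1.76% and 1.64%. In endothelial-like cells type IV took 82.9%, 82.0%, 76.4% and 81.3%.

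Among the fibrillar chains of fibroblast-like cells, Col3a1, the single chain of type III collagen, was counted most, at 12830, 17743, 12511 and 13357 CPM. Col1a1 and Col1a2, the chains of type I collagen, stood at 7462, 12071, 6398 and 7509 CPM and at 7178, 10748, 8016 and 8309 CPM. The mdx5cv/Ccr2-/- quadriceps library was the highest for all 3 chains, and the other libraries lay close together. The type V chains, which join type I fibres and set their width, were next: Col5a2 at 1418, 2101, 1062 and 1163 CPM, Col5a1 at 894.6, 1387, 672.7 and 734.5 CPM and Col5a3 at 487.6, 500.3, 273.3 and 260.2 CPM. All 3 were lower in both diaphragm libraries than in both quadriceps libraries. Col27a1, a fibrillar chain best known from cartilage, stood at 70.1, 76.8, 34.0 and 29.3 CPM, with the same order of muscles. Col11a1, a type XI chain, was near the limit of measurement with 4.60, 50.2, 11.1 and 31.6 CPM, higher in each mdx5cv/Ccr2-/- library than in either mdx5cv library.

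For type VI, the 3 standard chains were counted most: Col6a3 at 1921, 2701, 1269 and 1336 CPM, Col6a1 at 1362, 1793, 1218 and 1287 CPM and Col6a2 at 956.4, 1250, 815.1 and 850.7 CPM. Each was highest in the mdx5cv/Ccr2-/- quadriceps. Col6a5 and Col6a6, the chains that can take the place of Col6a3 in the trimer, showed another order. Col6a5 stood at 16.5, 13.9, 447.1 and 488.9 CPM, and Col6a6 at 87.9, 66.5, 216.1 and 236.2 CPM, so both diaphragm libraries were above both quadriceps libraries. Col6a6, Col6a5 and Col6a4 lie in that order on chromosome 9 on the minus strand, with gaps of 27917 and 28810 bases between the annotated genes; Col6a4 gave 93 UMIs over all kept cells and was measured in no class.

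The fibril-associated chains of fibroblast-like cells were led by Col14a1, which binds the surface of type I fibres, at 573.7, 850.0, 846.9 and 971.8 CPM. Col12a1, its close relative in dense connective tissue, stood at 113.9, 382.8, 104.6 and 124.5 CPM, and Col16a1 at 140.7, 242.2, 99.9 and 111.3 CPM, both highest in the mdx5cv/Ccr2-/- quadriceps. The short-chain network chain Col8a1 stood at 710.9, 1084, 710.9 and 721.0 CPM and its partner Col8a2 at 19.2, 31.0, 23.9 and 26.0 CPM. Again the mdx5cv/Ccr2-/- quadriceps was the highest.

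The basement membrane chains of fibroblast-like cells differed among themselves. Col4a1 and Col4a2, the chains of the common type IV trimer, were at 1006, 930.4, 682.0 and 788.3 CPM and at 490.3, 462.4, 342.4 and 408.1 CPM. Col4a5, a chain of the trimer of kidney and smooth muscle basement membranes, was at 43.1, 19.2, 44.2 and 69.8 CPM, lowest in the mdx5cv/Ccr2-/- quadriceps and highest in the mdx5cv/Ccr2-/- diaphragm. Among the multiplexins, which link the basement membrane to the interstitium, Col15a1 was higher in the diaphragm (292.4, 298.8, 628.2 and 631.1 CPM) and Col18a1, the precursor of endostatin, lower there (85.5, 126.2, 15.1 and 16.6 CPM).

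The first comparison asks how the chains of fibroblast-like cells differ when Ccr2 is lacking. In the quadriceps the collagen share of UMIs was 1.44 times as high in mdx5cv/Ccr2-/- as in mdx5cv (interval 1.43 to 1.44). Of the 23 chains, 6 were called higher, where 2.38% of all 5795 measured genes were, and 1 was called lower, against 2.64%. The median log2 ratio of the chains was 0.49, beside 0.04 for all measured genes, and 18 chains were above 0. Col11a1 was 10.9 times as high (8.56 to 14.1), Col12a1 3.36 times (3.19 to 3.55), Col16a1 1.72 times (1.63 to 1.81), Col1a1 1.62 times (1.61 to 1.63), Col5a1 1.55 times (1.52 to 1.58) and Col8a1 1.53 times (1.49 to 1.56). Col4a5 was the chain called lower, at 0.445 times (0.389 to 0.508). With the mix of fibroblast states described below held at that of mdx5cv, Col11a1 and Col12a1 stayed past 1.5-fold and the other 5 did not.

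In the diaphragm the same contrast gave a collagen share 1.08 times as high (1.08 to 1.09). Here 2 of the 23 chains were called higher, against 0.293% of all measured genes, and 0 were called lower, against 0.483%. They were Col11a1 at 2.84 times (2.56 to 3.16) and Col4a5 at 1.58 times (1.49 to 1.68). The median log2 ratio of the chains was 0.13, beside 0.03 for all measured genes, and 21 chains were above 0. Col11a1 was thus higher in the mdx5cv/Ccr2-/- library of both muscles, Col4a5 was lower in the quadriceps and higher in the diaphragm, and Col12a1 was at 1.19 times in the diaphragm. No difference between the muscles in these ratios could be tested.

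**Figure D2:**
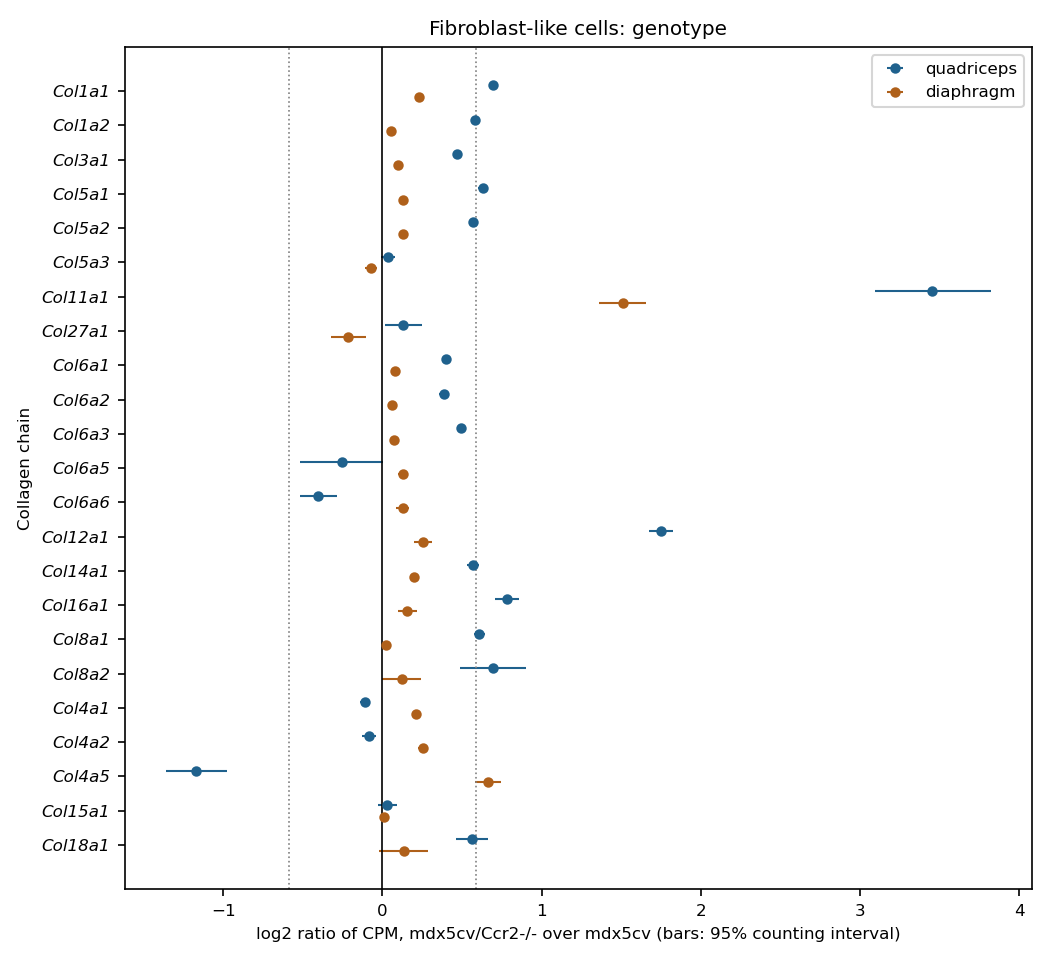
Ratio of CPM in fibroblast-like cells, mdx5cv/Ccr2-/- over mdx5cv, on a log2 axis for each of the 23 measured chains, with quadriceps and diaphragm as separate points; bars are 95% counting intervals and dotted lines mark 1.5-fold. Col11a1 and Col12a1 lie farthest to the right in the quadriceps, and Col4a5 lies on opposite sides of 0 in the 2 muscles.

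Tenocyte markers were higher in the mdx5cv/Ccr2-/- library of each muscle, as Col11a1 and Col12a1 were. Between the muscles of mdx5cv the markers and Col11a1 were higher in the diaphragm and Col12a1 was not. Between the muscles of mdx5cv/Ccr2-/- the markers were higher in the diaphragm, while Col11a1 and Col12a1 were lower there. Tenocyte-like cells held 797.7, 1014, 924.0 and 1030 CPM of Col11a1 and 1261, 1384, 1608 and 1656 CPM of Col12a1, far above fibroblast-like cells. The 7 tenocyte markers summed to 42.9, 105.6, 93.9 and 117.3 CPM in fibroblast-like cells, beside 11461, 10962, 7203 and 8515 CPM in tenocyte-like cells, and none of the 7 was at 0 in any library. In 1 gate that joined both marker lists, chosen after seeing the data, the log2 ratios for quadriceps and diaphragm were 0.89 and 1.31 for Col11a1 and 1.15 and 0.47 for Col12a1. The part of tenocyte RNA in these ratios was not tested. Cells with a Col11a1 UMI, after thinning each cell to 2000 UMIs, were 0.767%, 6.78%, 1.39% and 5.00% of fibroblast-like cells (3.33%, 18.7%, 4.74% and 16.4% unthinned), beside 0% to 0.0615% of myeloid-like cells.

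The second comparison asks how the chains differ between the muscles. In mdx5cv the diaphragm library had 4 chains called higher than the quadriceps, against 6.83% of all measured genes, and 4 called lower, against 6.56%. Col6a5 was 27.0 times as high in the diaphragm (23.9 to 30.7), Col6a6 2.46 times (2.32 to 2.60), Col11a1 2.42 times (1.88 to 3.15) and Col15a1 2.15 times (2.08 to 2.22). Col18a1 was at 0.177 times (0.161 to 0.194), Col27a1 at 0.485 times, Col5a3 at 0.560 times and Col6a3 at 0.661 times. The median log2 ratio of the chains was -0.16, beside -0.03 for all measured genes, and the collagen share was 0.955 times that of the quadriceps. In the joined gate the log2 ratio of Col11a1 was -2.04, the opposite direction, and -1.61 in mdx5cv/Ccr2-/-. Tenocyte-like cells numbered 186 and 216 in the quadriceps libraries and 20 and 36 in the diaphragm libraries.

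In mdx5cv/Ccr2-/- the diaphragm library again had 4 chains called higher, against 6.78% of all measured genes, and 11 called lower, against 5.69%. Col6a5 was 35.3 times as high (31.2 to 40.2), Col4a5 3.64 times (3.25 to 4.08), Col6a6 3.55 times (3.34 to 3.77) and Col15a1 2.11 times (2.05 to 2.17). Col18a1 was at 0.131 times (0.120 to 0.143), Col12a1 at 0.325 times, Col27a1 at 0.382 times, Col16a1 at 0.460 times, Col6a3 at 0.495 times, Col5a3 at 0.520 times, Col5a1 at 0.530 times, Col5a2 at 0.554 times, Col1a1 at 0.622 times, Col11a1 at 0.631 times and Col8a1 at 0.665 times. The median log2 ratio of the chains was -0.55, beside -0.04 for all measured genes, and the collagen share was 0.718 times that of the quadriceps. Each of these 4 comparisons shares a library with 2 of the others. The mdx5cv/Ccr2-/- quadriceps library, the highest for most fibrillar chains, enters both this comparison and the first, so the chains called lower here and higher there are not separate evidence.

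**Figure D3:**
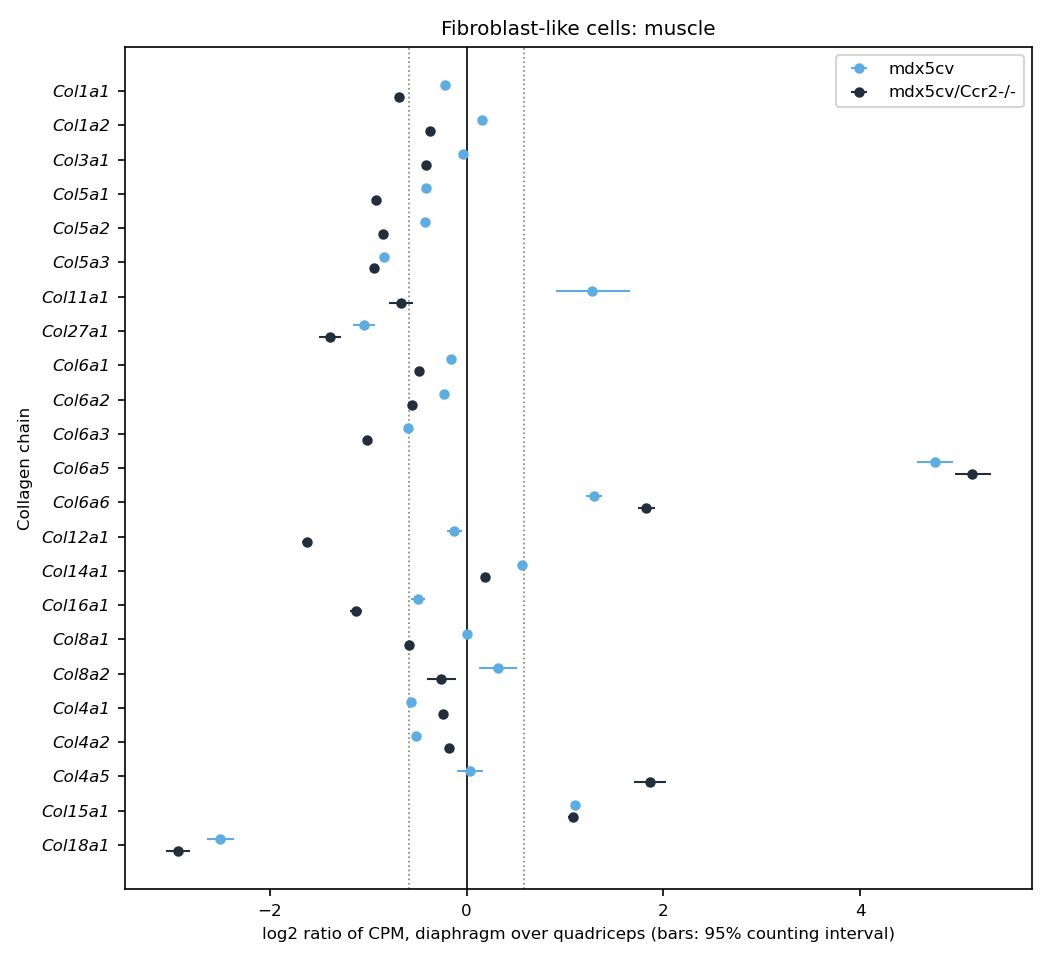
Ratio of CPM in fibroblast-like cells, diaphragm over quadriceps, on a log2 axis for each of the 23 measured chains, with each genotype as a separate point; bars are 95% counting intervals and dotted lines mark 1.5-fold. Col6a5 lies farthest to the right and Col18a1 farthest to the left in both genotypes.

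Col6a5 was the chain with the widest gap between the muscles and was found mostly in fibroblast-like cells, which held 96.1% of its UMIs. The 63 mesothelial-like cells of the mdx5cv diaphragm held 54.4 CPM, more than the fibroblast-like cells of either quadriceps library. Tenocyte-like cells gave 0, 0, 0 and 3.10 CPM, the last of these a single UMI, and mural-like cells gave 0 in all 4 libraries. A count of 0 allows up to 1.59, 1.54 and 21.8 CPM in the first 3 tenocyte-like groups and 2.95, 1.72, 9.85 and 5.74 CPM in mural-like cells. Myeloid-like cells gave 0.0487, 0.0693, 3.34 and 3.26 CPM, the same order of muscles at a level far lower. After thinning to 2000 UMIs a Col6a5 UMI was seen in 2.19%, 2.55%, 37.9% and 36.6% of fibroblast-like cells (13.2%, 9.04%, 54.7% and 58.1% unthinned), and in 0%, 0%, 0.650% and 0.883% of myeloid-like cells. Median depth in fibroblast-like cells was 13790, 14070, 6432 and 10238 UMIs, lower in both diaphragm libraries. Over all kept cells it was 7965, 6652, 5857 and 8962 UMIs. By state, the level was 27.0, 46.2, 693.6 and 707.7 CPM in Smoc2/Gdf10-high fibroblasts and 10.9, 6.07, 121.5 and 255.5 CPM in Cthrc1/Tnc-high fibroblasts. In Pi16/Dpp4-high fibroblasts it was 3.80, 0, 242.9 and 236.3 CPM, where the 0 allows up to 11.4 CPM. In each state both diaphragm libraries were above both quadriceps libraries.

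Fibroblast states were gated within the class on 5 markers each: Cthrc1/Tnc-high cells, marked by genes of activated matrix-producing fibroblasts, Smoc2/Gdf10-high cells and Pi16/Dpp4-high cells, the last marked by genes of adventitial fibroblasts. They are ranges along marker levels, not separate types, and 26.0%, 17.7%, 34.1% and 38.5% of fibroblast-like cells fell in none. Cthrc1/Tnc-high cells were 25.6%, 57.4%, 10.8% and 11.9% of fibroblast-like cells. The collagen share of their UMIs was 5.24%, 6.01%, 5.51% and 6.01%, against 2.96%, 3.65%, 2.82% and 3.02% in Smoc2/Gdf10-high and 1.86%, 1.76%, 1.37% and 1.79% in Pi16/Dpp4-high cells. The order of the 3 states was the same in every library.

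**Figure D4:**
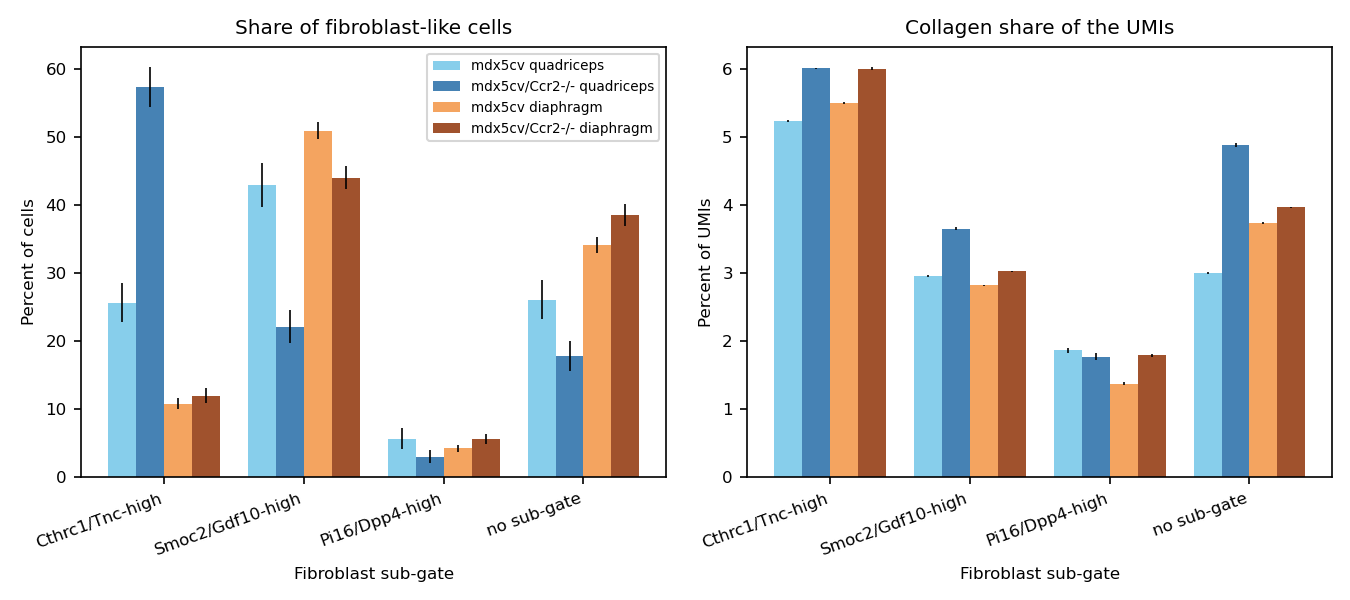
Percent of fibroblast-like cells in each state (left) and collagen percent of the UMIs of that state (right), with 1 bar per library from 0 and lines for 95% counting intervals. Cthrc1/Tnc-high cells make up 57.4% of fibroblast-like cells in the mdx5cv/Ccr2-/- quadriceps and have the highest collagen share in every library.

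Between states, Cthrc1/Tnc-high against Smoc2/Gdf10-high cells, 8 of 21 measured chains were called higher in the mdx5cv quadriceps (9.28% of all measured genes), 10 of 23 in the mdx5cv/Ccr2-/- quadriceps (10.2%), 12 of 21 in the mdx5cv diaphragm (8.83%) and 13 of 22 in the mdx5cv/Ccr2-/- diaphragm (7.10%). Chains called lower were 4 (7.19%), 6 (11.3%), 3 (8.76%) and 2 (7.55%). Col3a1, Col1a1, Col1a2, Col5a1, Col5a2, Col8a1, Col12a1 and Col16a1 were called higher in all 4 libraries and Col6a6 was called lower in all 4. Col8a1 was 3.20, 2.78, 3.13 and 3.02 times as high and Col1a1 2.73, 2.51, 2.86 and 2.68 times. Col4a1 was at 0.471 and 0.430 times in the quadriceps libraries and at 0.987 and 1.20 times in the diaphragm libraries. Smoc2/Gdf10-high cells held 1560 and 1645 CPM of it in the quadriceps and 662.9 and 731.2 CPM in the diaphragm. These are cells of the same library, and the states were gated on genes that accompany matrix production, so the contrast is a description.

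The shares of the states moved with the genotype ratio in the quadriceps. Because the states were gated on genes that accompany matrix production, ratios with the shares held cannot tell a change of state from a change in matrix genes. With the share of UMIs from each state held at that of mdx5cv, the collagen ratio in the quadriceps was 1.27 in place of 1.44, Col1a1 was at 1.28 in place of 1.62, Col16a1 at 1.29 in place of 1.72, Col5a1 at 1.25 in place of 1.55, Col8a1 at 1.24 in place of 1.53, Col12a1 at 2.10 in place of 3.36, Col11a1 at 7.21 in place of 10.9 and Col4a5 at 0.702 in place of 0.445. In the diaphragm the ratio was 1.08 either way. Between the muscles of mdx5cv/Ccr2-/- mice with the shares held at those of the quadriceps, it was 0.963 in place of 0.718, whereas Col6a5 remained at 24.5 in place of 35.3 and Col18a1 at 0.154 in place of 0.131. Within Cthrc1/Tnc-high cells alone, 2 chains were called higher in the mdx5cv/Ccr2-/- quadriceps, against 1.21% of measured genes: Col11a1 at 7.62 times (5.72 to 10.3) and Col12a1 at 2.35 times (2.21 to 2.49). Col4a5 was called lower, at 0.414 times (0.327 to 0.526), against 1.72%.

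The other comparisons were also made within a single state. In the diaphragm, Cthrc1/Tnc-high cells of mdx5cv/Ccr2-/- mice had 3 chains called higher (0.403% of measured genes), Col11a1, Col6a5 and Col4a5, and 0 lower (0.648%). In Smoc2/Gdf10-high cells, Col6a5 was the 1 chain called higher between genotypes in the quadriceps (2.57%) and Col4a5 the 1 in the diaphragm (0.399%), with 0 called lower in either muscle (0.937% and 0.659%). Between the muscles, Cthrc1/Tnc-high cells had 4 chains called higher in the diaphragm in mdx5cv (4.43%) and 2 lower (5.27%), Col27a1 and Col18a1. In mdx5cv/Ccr2-/- they had 4 higher (4.47%) and 3 lower (3.70%), Col27a1, Col12a1 and Col18a1. Smoc2/Gdf10-high cells had 3 higher (7.06%) and 7 lower (6.12%) in mdx5cv, and 2 higher (5.03%) and 7 lower (6.11%) in mdx5cv/Ccr2-/-. Col6a5 and Col6a6 were among the chains called higher in the diaphragm, and Col18a1 and Col27a1 among those called lower, in both states and both genotypes. Col4a1 and Col4a2 were called lower in the diaphragm in Smoc2/Gdf10-high cells of both genotypes and in neither genotype in Cthrc1/Tnc-high cells; that difference was not tested.

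Genes that process collagen were read in fibroblast-like cells as 4 lists, against the shares of measured genes given above for each comparison. Of 21 genes for chain modification and folding, 19 were measured and 0 were called in either genotype comparison, with a median log2 ratio of 0.23 for the quadriceps and -0.03 for the diaphragm. P4ha3, a subunit of prolyl 4-hydroxylase, was lower in the diaphragm of both genotypes (30.8, 47.7, 12.4 and 12.0 CPM), as was P3h1, a prolyl 3-hydroxylase (69.6, 87.4, 43.9 and 43.5 CPM). Fkbp10, a collagen chaperone, was called lower in the diaphragm of mdx5cv/Ccr2-/- alone (133.0, 157.8, 102.0 and 93.1 CPM).

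Of 5 crosslinking genes, 4 were measured, and 3 were called lower in the diaphragm of both genotypes: Lox at 317.7, 295.9, 190.0 and 180.3 CPM, Loxl2 at 162.9, 210.0, 81.5 and 115.3 CPM and Loxl3 at 92.1, 85.2, 33.6 and 34.1 CPM. The list's median log2 ratio was -0.84 in mdx5cv and -0.77 in mdx5cv/Ccr2-/-, and 0 of 4 were called between genotypes. Of 8 genes for procollagen cleavage, 4 were measured. Pcolce2, an enhancer of that cleavage, stood at 80.0, 39.5, 78.0 and 83.0 CPM and was called lower in the mdx5cv/Ccr2-/- quadriceps and higher in the mdx5cv/Ccr2-/- diaphragm than in that library, and Adamts2, which removes the amino-terminal propeptide, was called higher in the mdx5cv diaphragm (209.5, 254.2, 328.1 and 362.9 CPM). Of 10 receptors and uptake genes, 5 were measured, and Itga1, a collagen-binding integrin subunit, was called higher in the mdx5cv/Ccr2-/- quadriceps (48.2, 95.5, 53.0 and 61.7 CPM) and lower in the diaphragm of mdx5cv/Ccr2-/-.

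Endothelial-like cells carried a basement membrane set. Col4a1 stood at 2045, 2560, 1563 and 1841 CPM and Col4a2 at 1177, 1370, 808.3 and 974.7 CPM, both above the fibroblast-like level of the same library. Col15a1 was at 314.0, 430.3, 223.0 and 240.1 CPM. All 3 were higher in each quadriceps library than in the diaphragm library of the same genotype. Col28a1, a small beaded-filament chain, stood at 35.8, 62.7, 19.1 and 19.0 CPM and was lower in the diaphragm of both genotypes. By sub-gate it was highest in capillary-like cells (44.1, 74.8, 26.1 and 23.3 CPM), whereas Col8a1 was highest in arterial-like cells (491.1, 436.5, 507.9 and 415.1 CPM, from 79, 102, 31 and 31 cells).

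Of the 9 chains measured in endothelial-like cells, 1 was called higher in mdx5cv/Ccr2-/- quadriceps (against 0.634% of 5992 measured genes), Col28a1 at 1.75 times (1.51 to 2.03), and 0 lower (0.534%). In the diaphragm 0 were called higher (0.751%) and 1 lower (2.05%), Col18a1 at 0.511 times (0.396 to 0.657). Between the muscles of mdx5cv, 2 were called higher in the diaphragm (4.21%), Col3a1 at 1.93 times and Col18a1 at 1.59 times, and 1 lower (2.15%), Col28a1 at 0.534 times (0.389 to 0.720). In mdx5cv/Ccr2-/-, 0 were called higher (2.49%) and 3 lower (1.85%): Col28a1 at 0.303 times (0.236 to 0.384), Col18a1 at 0.533 times (0.431 to 0.652) and Col15a1 at 0.558 times (0.520 to 0.598). The median log2 ratio of the 9 chains was 0.34, -0.0049, 0.02 and -0.47 in these 4 comparisons, beside 0.06, 0.0078, 0.02 and -0.02 for all measured genes. The ratio of collagen shares was 1.23, 1.12, 0.798 and 0.723 in the class. Within capillary-like cells it was 1.23, 1.02 (0.986 to 1.047), 0.872 and 0.721. The part of the mix of endothelial sub-gates in the class ratios was not tested.

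Values that move with 2 of these calls stand beside them. Myeloid-like cells also held more Col3a1 in the mdx5cv diaphragm (37.7, 58.9, 97.2 and 76.6 CPM) than in the other libraries, as endothelial-like cells did (66.0, 90.7, 127.1 and 104.0 CPM), and 3 of 3 chains measured in myeloid-like cells were called higher in that diaphragm (3.73% of measured genes) and 0 lower (1.86%). In mdx5cv/Ccr2-/- mice 0 of the 3 were called higher (4.69%) or lower (3.99%) between the muscles. Between genotypes 0 were called in the quadriceps (2.92% higher and 2.58% lower), and in the diaphragm 0 were called higher (2.40%) and Col1a2 lower (2.33%). Endothelial-like Col18a1 stood at 34.2, 52.1, 54.4 and 27.8 CPM. Lymphatic-like cells, at 151.8, 394.4, 175.3 and 129.3 CPM of Col18a1, were 14, 23, 186 and 81 of the endothelial-like cells, and the 6 mesothelial markers summed to 8.21, 6.30, 100.9 and 39.0 CPM in the class, with 5, 5, 1 and 5 of them at 0. In capillary-like cells Col18a1 was at 19.5, 37.2, 12.8 and 10.7 CPM. With a stricter gate the log2 ratio of Col18a1 between the muscles of mdx5cv was -0.06, and 0 chains were called lower between genotypes in the diaphragm. The part of lymphatic or mesothelial RNA in the Col18a1 ratios was not tested.

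Tenocyte-like cells had about as much type I collagen as fibroblast-like cells and less type III: Col1a1 stood at 8164, 9967, 7239 and 8658 CPM, Col1a2 at 8367, 10384, 7072 and 8016 CPM and Col3a1 at 2187, 3305, 2125 and 3414 CPM. Col6a1 was at 910.3, 1249, 880.4 and 827.9 CPM. They also carried Col22a1, a chain of the muscle-tendon junction (412.4, 544.4, 691.2 and 437.2 CPM), Col11a2, a type XI chain (127.5, 89.1, 152.8 and 117.8 CPM), and Col13a1, a membrane-spanning chain (51.0, 46.6, 58.2 and 34.1 CPM). Between genotypes they were compared in the quadriceps only, where both libraries held over 100 cells, a choice made after seeing the data. Of 22 chains, 4 were called higher in mdx5cv/Ccr2-/- (3.13% of measured genes) and 0 lower (1.30%): Col18a1 at 2.23 times (1.88 to 2.66), Col5a3 at 1.92 times, Col6a3 at 1.58 times and Col3a1 at 1.51 times. The median log2 ratio was 0.33, beside 0.09 for all measured genes, and Col11a1 and Col12a1 were not called.

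Mural-like cells were led by Col4a1 at 947.2, 1003, 535.2 and 563.1 CPM, followed by Col3a1 at 705.5, 890.3, 223.3 and 363.9 CPM. Col4a2 at 536.5, 517.1, 259.4 and 260.5 CPM, Col6a3 at 412.7, 454.6, 154.3 and 159.0 CPM and Col1a2 at 258.4, 352.6, 197.0 and 214.5 CPM came next. All 5 chains were lower in both diaphragm libraries. The make-up of the class differed too: pericyte-like cells were 124 of 173 and 236 of 337 cells in the quadriceps libraries and 40 of 73 and 36 of 76 in those of the diaphragm, and the part of this in the lower levels was not tested. Col3a1 was higher in pericyte-like cells (1280, 1409, 517.0 and 1174 CPM) than in smooth muscle-like cells (29.2, 60.1, 112.7 and 68.0 CPM), and Col4a5 the other way round (12.9, 13.4, 11.2 and 29.7 CPM against 87.6, 128.3, 87.1 and 136.0 CPM). Between genotypes in the quadriceps 0 of 15 chains were called higher (2.10% of measured genes) and 0 lower (1.56%).

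Myogenic-like cells, only 30, 71, 99 and 28 in number, were led by Col1a2 at 633.9, 854.0, 463.2 and 506.7 CPM, then Col3a1 at 372.1, 394.8, 303.6 and 416.4 CPM. Col5a2 was at 220.6, 177.1, 83.4 and 171.3 CPM, Col1a1 at 174.5, 207.7, 39.7 and 75.5 CPM and Col18a1 at 151.5, 173.2, 42.3 and 71.9 CPM. Col1a1 in the mdx5cv diaphragm was below the myeloid-like level of 49.2 CPM. Col18a1 was lower in both diaphragm libraries, and Col26a1, highest in this class, stood at 34.6, 47.5, 18.2 and 29.5 CPM.

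Glial-like cells, 55, 54, 14 and 14 in number, held Col20a1, a fibril-associated chain, at 889.3, 877.2, 690.9 and 1043 CPM, against at most 1.59 CPM in any other class, seen in the fibroblast-like cells of the mdx5cv/Ccr2-/- diaphragm. Col1a2 was at 1072, 964.1, 748.5 and 782.4 CPM, Col4a1 at 759.9, 703.5, 604.6 and 521.6 CPM, Col4a2 at 421.4, 343.5, 374.3 and 599.8 CPM and Col3a1 at 428.1, 397.2, 1727 and 286.9 CPM. The mdx5cv diaphragm library, with 14 of these cells, was the highest for Col3a1. Col28a1 was at 49.8, 99.3, 86.4 and 234.7 CPM, its highest level in any class. In the 63 mesothelial-like cells of the mdx5cv diaphragm Col3a1 stood at 1896 CPM, Col1a2 at 1246 CPM, Col1a1 at 670.3 CPM, Col14a1 at 415.4 CPM and Col6a1 at 329.4 CPM, and Col4a6 and Col4a5, whose starts lie 1309 bases apart on chromosome X, at 131.8 and 94.5 CPM.

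In the immune cells, taken as the free RNA level without a test of that reading, Col3a1 had the highest mean. Lymphoid-like cells held Col3a1 at 57.5, 133.9, 103.3 and 105.5 CPM, Col1a2 at 53.9, 101.8, 54.1 and 58.0 CPM and Col1a1 at 68.3, 84.9, 42.3 and 52.7 CPM. Myeloid-like cells held Col1a2 at 25.7, 30.2, 61.0 and 38.5 CPM and Col1a1 at 28.1, 32.3, 49.2 and 39.0 CPM. Next came Col5a2 (10.8, 18.9, 8.71 and 14.9 CPM) and Col6a3 (18.0, 13.2, 10.6 and 11.4 CPM) in lymphoid-like cells, and Col14a1 (3.85, 18.2, 17.3 and 40.0 CPM) and Col6a3 (7.06, 9.08, 9.60 and 7.56 CPM) in myeloid-like cells. In the mdx5cv/Ccr2-/- diaphragm the myeloid-like level of Col14a1 was above those of Col1a1 and Col1a2. The ratio of Col14a1 to Col1a1 was higher in myeloid-like cells than in all kept cells of every library. Whether the Col14a1 UMIs of myeloid-like cells are free RNA was not tested.

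Ratios between chains of 1 library are free of its depth and describe each class. Col3a1 to Col1a1 was 1.72, 1.47, 1.96 and 1.78 in fibroblast-like cells and 0.268, 0.332, 0.293 and 0.394 in tenocyte-like cells, with no overlap between the 2 classes. In the mural-like sub-gates it was 4.98, 5.00, 5.11 and 5.64 in pericyte-like cells and 0.5, 1, 1.83 and 3.14 in smooth muscle-like cells. The smooth muscle-like intervals were wide, at 0.219 to 1.08, 0.582 to 1.72, 0.869 to 4.06 and 1.30 to 8.71. In both diaphragm libraries they overlapped those of pericyte-like cells. Smooth muscle-like Col3a1 was near the myeloid-like level, so this ratio is not read as a trait of those cells. Col1a2 to Col1a1 was 0.962, 0.890, 1.25 and 1.11 in fibroblast-like cells and 1.02, 1.04, 0.977 and 0.926 in tenocyte-like cells. Col4a2 to Col4a1, whose genes start 21 bases apart on opposite strands of chromosome 8, was 0.487, 0.497, 0.502 and 0.518 in fibroblast-like and 0.575, 0.535, 0.517 and 0.530 in endothelial-like cells; tenocyte-like cells had 0.807, 0.777, 0.678 and 0.796. Col6a3 to Col6a1 in fibroblast-like cells was 1.41 and 1.51 in the quadriceps libraries and lower, at 1.04 in each, in those of the diaphragm. By state it was 1.44, 1.40, 0.834 and 0.848 in Smoc2/Gdf10-high cells and 1.27, 0.737, 0.521 and 0.446 in Pi16/Dpp4-high cells. In Cthrc1/Tnc-high cells it was 1.37, 1.54, 1.45 and 1.40. Both diaphragm values were thus below both quadriceps values in Smoc2/Gdf10-high and Pi16/Dpp4-high cells, and not in Cthrc1/Tnc-high cells. Col5a1 to Col5a2 was 0.631, 0.660, 0.633 and 0.631 in fibroblast-like cells, nearly the same in every library, and 0.353, 0.345, 0.291 and 0.380 in tenocyte-like cells.

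**Figure D5:**
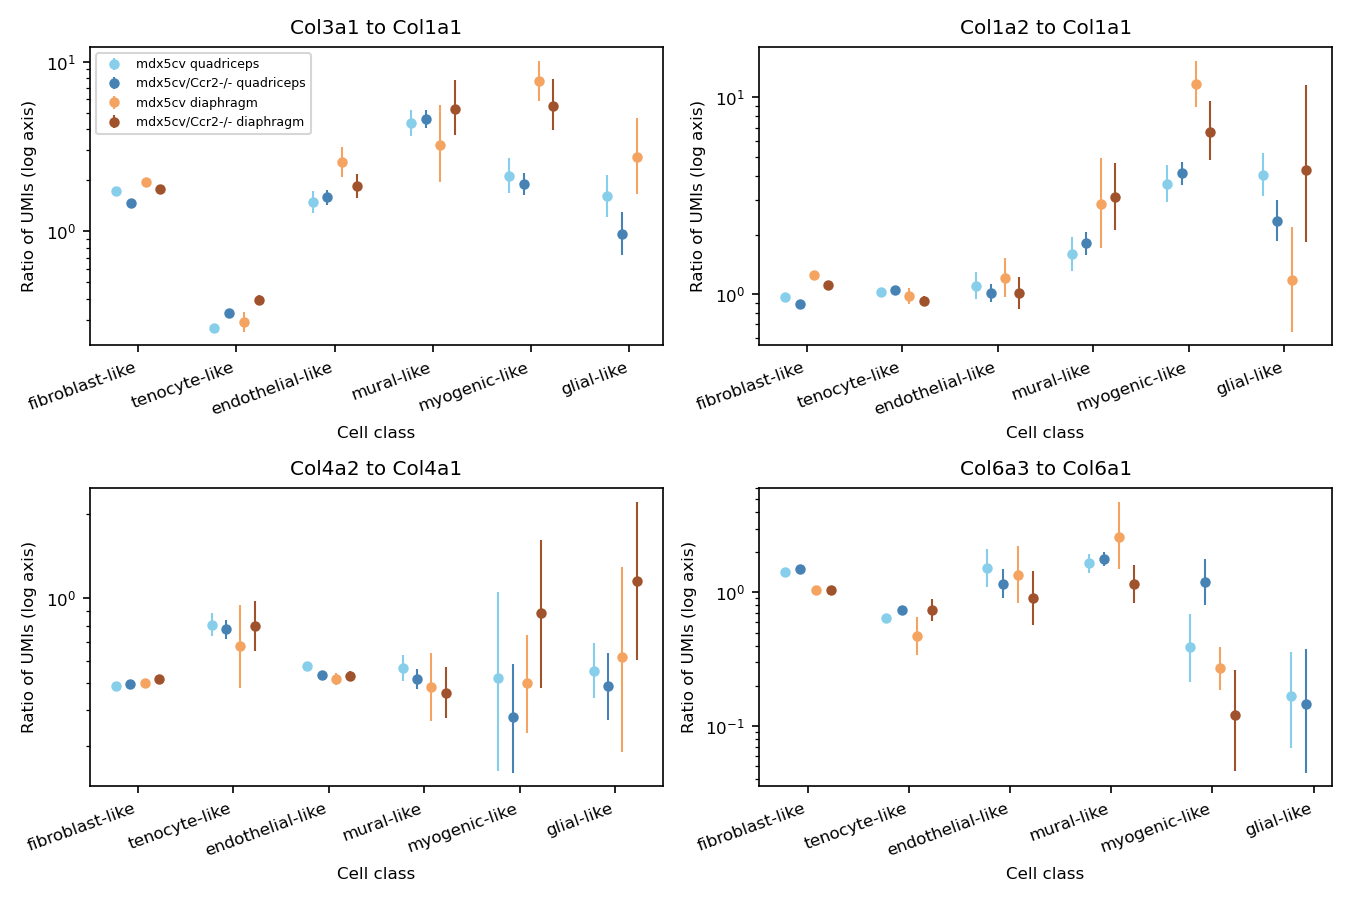
Ratio of the UMIs of chain pairs (log axes) in 6 cell classes, with 1 point per library, left out where a pair had under 20 UMIs, and bars for 95% counting intervals; Col1a1 was not over 3 times the immune level in endothelial-, mural- and myogenic-like cells. Col3a1 to Col1a1 separates tenocyte-like cells (0.268 to 0.394) from fibroblast-like cells (1.47 to 1.96), and Col4a2 to Col4a1 lies between 0.487 and 0.575 in both fibroblast-like and endothelial-like cells.

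The 15 chains measured in no class were Col2a1, Col4a3, Col4a4, Col4a6, Col6a4, Col7a1, Col9a1, Col9a2, Col9a3, Col10a1, Col17a1, Col19a1, Col23a1, Col24a1 and Col25a1. They include the cartilage chains of types II, IX and X and chains of skin anchoring structures, types VII and XVII. Their UMIs over all kept cells ran from 14 for Col9a1 to 1408 for Col4a4. Not reaching the threshold in a whole class did not mean a low level everywhere. Col19a1 gave 14.8, 22.2, 0.651 and 1.84 CPM in myogenic-like cells, and Col23a1, a membrane-spanning chain, gave 227.7, 64.2, 244.5 and 150.5 CPM in lymphatic-like endothelial cells. Col4a4 had 79.0% of its UMIs in fibroblast-like cells and was measured in Smoc2/Gdf10-high cells, at 32.3, 21.3, 13.7 and 12.9 CPM.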

How the data were processed

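The values are deposited UMI counts per gene and cell barcode, 1 filtered matrix per library, which the authors made with Cell Ranger 6.1.2 on mm10, per the submitters' processing notes; its annotation release and intron handling are unknown here. A filter of 500 UMIs and 300 genes per cell as minimums and 15% mitochondrial UMIs as maximum passed 31077 of 33554 barcodes, and Scrublet in scanpy 1.11.5 removed the top scores at 0.8% per 1000 barcodes, 2508 cells. A cell took the class with most marker UMIs if it had at least 3 from at least 2 genes and the runner-up had at most 20% as many; sub-gates needed 2 UMIs of 2 genes and a runner-up of at most 50%. No collagen and not Ccr2 was a marker. A marker gate can leave out cells of low depth, and free RNA adds UMIs to every class.

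CPM are UMI sums of each class in each library, scaled to a common total. A gene counted as measured at a mean of 20 CPM and 50 UMIs over libraries, log2 ratios used a pseudocount of 5 CPM, and a call meant a change past 1.5-fold; ratios carry exact conditional binomial intervals and shares exact Clopper-Pearson intervals (scipy 1.17.1). Comparisons across all 4 libraries needed 100 cells of the class in each. With 1 library per group there was no test and no p-value. Values are given in every library for members measured in fibroblast-like cells, and in other classes for the 5 highest members and any member past 1.5-fold the same way in both muscles or both genotypes; other chains named in the text were chosen after their values were seen. The members, gene lists and comparisons were chosen with earlier results of these data known. Scripts were tested on simulated data. Alternatives changed the cell filter, doublet removal, gate, scaling, pseudocount, filter on low values and cell weighting.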

Additional observations from a re-analysis of the deposited data

Results flagged for a closer look

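In fibroblast-like cells Col11a1 was higher in the diaphragm than in the quadriceps of mdx5cv mice, at a ratio of 2.42, and lower in mdx5cv/Ccr2-/- mice, at 0.631. In the joined gate the log2 ratios were -2.04 and -1.61. That gate also takes in tenocyte-like cells, which held far more Col11a1. They numbered 186 and 216 in the quadriceps libraries and 20 and 36 in the diaphragm libraries. The joined gate can also take in the cells with both marker sets described below, 69, 323, 345 and 327 in the order of libraries. The part of either group of cells in the joined ratios was not tested, so these ratios cannot show the direction in fibroblast-like cells. In mdx5cv/Ccr2-/- the log2 ratio was 0.82 in Smoc2/Gdf10-high and 0.95 in Pi16/Dpp4-high cells. In endothelial-like cells Col18a1 differed in the same way, at 1.59 in mdx5cv and 0.533 in mdx5cv/Ccr2-/-. With a stricter gate the log2 ratio in mdx5cv was -0.062, and capillary-like cells held 19.5 CPM in the quadriceps and 12.8 CPM in the diaphragm. Col4a5 in fibroblast-like cells was at 0.445 for mdx5cv/Ccr2-/- over mdx5cv in the quadriceps and at 1.58 in the diaphragm. Each pair was picked out because the ratios point in opposite directions, and with 1 library per group none of these differences was tested.

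Cells that carried both fibroblast and tenocyte markers fell in neither gate and entered only the comparisons of the joined gate. Their collagen share of UMIs was 3.66%, 5.50%, 4.11% and 3.62% in the order of libraries used above, far above the 0.0147% to 0.0307% of myeloid-like cells. They numbered 69, 323, 345 and 327 cells and held 5.40%, 19.3%, 6.42% and 7.39% of the collagen UMIs of their libraries.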

How the results depend on the processing

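No paired analysis was possible because each group is 1 library and the labels give no replicate numbers; for the same reason no replicate could be left out. Of 308 alternatives for collagen share ratios and counts of chains, 230 were labelled the same, 75 moved and 3 reversed. For the other values, 1224 were labelled the same, 684 moved and 16 reversed. These were log2 ratios of single chains, collagen percents of UMIs by library, and percents of cells with a chain. Each was labelled the same inside the counting interval of its main value, and only a called chain could be labelled reversed. A share ratio was labelled the same inside the counting interval of the main ratio, and a count within 1.5-fold of the main count. The same label therefore does not mean an equal count. Between genotypes in the diaphragm, 3 chains were called higher in Cthrc1/Tnc-high cells against 2 in all fibroblast-like cells, and this was labelled the same. Counts labelled the same are not listed below. The cause of a change was not tested. For counts of chains, the share of all measured genes is given above for the main setting and for Cthrc1/Tnc-high and Smoc2/Gdf10-high cells. It is not given for the other settings, so their counts show only how a count moved and cannot be set against all genes. Genes near 20 CPM and classes under 100 cells are limited by depth; Pi16/Dpp4-high cells numbered 51 and 33 in the quadriceps libraries. The joined gate and the gate without Cthrc1 were chosen after seeing the data.

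For the genotype ratio in the quadriceps of fibroblast-like cells (1.44), the alternatives gave 1.445 with a stricter cell filter, 1.45 without doublet removal, 1.434 with a stricter gate and with each cell weighted alike, 1.464 over the UMIs of other genes, 1.399 with the median of all genes set to 0, 1.147 in Cthrc1/Tnc-high cells, 1.236 in Smoc2/Gdf10-high cells and, reversed, 0.948 in Pi16/Dpp4-high cells. Chains called higher, 6 in all, were 10 over the UMIs of other genes, 2 in Cthrc1/Tnc-high and 1 in Smoc2/Gdf10-high cells; chains called lower, 1 in all, were 3 with no filter on low values, 3 in Pi16/Dpp4-high and 0 in Smoc2/Gdf10-high cells. In Pi16/Dpp4-high cells the log2 ratio reversed for Col5a1 (-0.10), Col16a1 (-0.87), Col12a1 (-0.12), Col1a1 (-0.44) and Col4a5 (0.22).

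In the diaphragm (1.08), the genotype ratio was 1.077 without doublet removal, 1.086 over the UMIs of other genes and with each cell weighted alike, 1.058 with the median set to 0, 1.303 in Pi16/Dpp4-high, 1.091 in Cthrc1/Tnc-high and 1.073 in Smoc2/Gdf10-high cells, and 1.066 in the joined gate. Chains called higher, 2 in all, were 1 with the stricter gate, the median set to 0, each cell weighted alike, Smoc2/Gdf10-high cells or the joined gate.

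Between the muscles of mdx5cv (0.955), the ratio was 0.9661 without doublet removal, 0.9733 with the median set to 0, 0.8746 with each cell weighted alike, 0.9503 with the myeloid-like level subtracted, 0.7376 in Pi16/Dpp4-high cells, 0.9936 in the joined gate and, reversed, 1.051 in Cthrc1/Tnc-high cells. Chains called lower, 4 in all, were 7 with each cell weighted alike, 7 in Pi16/Dpp4-high, 7 in Smoc2/Gdf10-high and 2 in Cthrc1/Tnc-high cells. The log2 ratio reversed for Col27a1 (0.36) in Pi16/Dpp4-high cells and for Col11a1 (-2.04) in the joined gate.

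Between the muscles of mdx5cv/Ccr2-/- (0.718), the ratio was 0.721 with the stricter gate and with Cthrc1 left out, 0.7068 over the UMIs of other genes, 0.7387 with the median set to 0, 0.6621 with each cell weighted alike, 0.7163 with the myeloid-like level subtracted, 1 in Cthrc1/Tnc-high, 0.8281 in Smoc2/Gdf10-high cells, 0.7339 in the joined gate and, reversed, 1.014 in Pi16/Dpp4-high cells. Chains called higher, 4 in all, were 2 in Smoc2/Gdf10-high cells; chains called lower, 11 in all, were 3 in Pi16/Dpp4-high, 3 in Cthrc1/Tnc-high and 7 in Smoc2/Gdf10-high cells. The log2 ratio reversed in Pi16/Dpp4-high cells for Col11a1 (0.95), Col16a1 (0.52), Col12a1 (1.14), Col1a1 (0.32) and Col4a5 (-0.63), in Cthrc1/Tnc-high cells for Col8a1 (0.0265) and in Smoc2/Gdf10-high cells for Col11a1 (0.82) and Col12a1 (0.52).

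In endothelial-like cells the genotype ratio in the quadriceps was 1.183 with the median set to 0, and 2 chains were called higher with the stricter gate, a pseudocount of 1 CPM or each cell weighted alike. In the diaphragm it was 1.084 with the stricter gate, 1.08 with each cell weighted alike and 1.149 with the myeloid-like level subtracted, which gave 2 chains higher; 2 were lower with the stricter cell filter or no filter on low values and 0 with the stricter gate. Between the muscles of mdx5cv it was 0.834 with the stricter gate, 0.8305 with each cell weighted alike and 0.7518 with the myeloid-like level subtracted; chains higher were 1 without doublet removal, with the stricter gate, the median set to 0 or the myeloid-like level subtracted, and 4 with no filter; chains lower were 0 with each cell weighted alike and 3 with the myeloid-like level subtracted; and Col18a1 reversed to -0.062 with the stricter gate. Between those of mdx5cv/Ccr2-/- it was 0.7415 with the stricter gate and 0.704 with the myeloid-like level subtracted, and chains higher were 1 with the stricter cell filter and 2 with no filter.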

Other observations

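Myeloid-like cells held a few collagen UMIs in proportions that can be set beside those of all cells of the library. Col3a1 to Col1a1 was 1.34, 1.82, 1.98 and 1.97 in myeloid-like cells and 1.52, 1.28, 1.93 and 1.72 in all cells. Col14a1 to Col1a1 was 0.137, 0.564, 0.353 and 1.03 in myeloid-like cells and 0.0689, 0.0617, 0.131 and 0.127 in all cells, higher in every library. Col27a1 to Col1a1 was 0.0590, 0.0987, 0.0618 and 0.205 in myeloid-like cells and 0.00949, 0.00636, 0.00557 and 0.00418 in all cells, also higher in every library. Whether the Col14a1 and Col27a1 UMIs of myeloid-like cells are free RNA was not tested.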
